A study of Mus musculus with 8 samples.

Results

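The genes of glycolysis and of the hypoxia response were examined in fibro/adipogenic progenitors (FAPs), the interstitial mesenchymal cells of skeletal muscle that can give rise to fat cells and to matrix-producing fibroblasts. The 35 genes were chosen by name, out of 31053 genes in the counts. They encode glucose and lactate transporters, glycolytic enzymes and the enzymes that tune them, the hypoxia-inducible factors (HIFs) with the enzymes that switch them off, and genes known to be induced by HIFs. FAPs were isolated from the hind limbs of *mdx* mice (strain C57BL/10ScSn-Dmdmdx/J, 45 days old), which lack dystrophin and serve as a model of muscular dystrophy. The gate took cells negative for CD45, CD31 and Integrin alpha-7 and positive for SCA-1, and the brighter and dimmer cells for SCA-1 were collected as SCA1-High-FAPs and SCA1-Low-FAPs. All cells carried the *mdx* mutation, no wild type cells are in this comparison, and 4 mice supplied the 4 replicates of each cell state. Sorted cells were kept for 5 days in growth medium (GM), a high-glucose medium with 20% serum and 1 mM pyruvate, and no inducer of differentiation was added. The 3′ mRNA libraries made from the RNA place the reads of a transcript near its 3′ end, so that a count does not scale with length.

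Glycolysis splits glucose into pyruvate in the cytosol and yields ATP without oxygen. Pyruvate either enters mitochondria or is turned into lactate, which leaves the cell through monocarboxylate transporters. The HIF alpha subunits, encoded by *Hif1a* and *Epas1*, are hydroxylated and destroyed when oxygen is present. When oxygen is scarce they persist, bind DNA at short hypoxia response elements and raise transcription of most glycolytic genes, of *Vegfa* and of mitophagy genes such as *Bnip3*. HIF activity is set mainly at the protein level, so the mRNA of an alpha subunit is not a measure of it.

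Genes took between 1880561 and 3985656 counts per sample. CPM, used throughout, is the count of a gene per 1000000 counts of its library, whose size was corrected by TMM for composition. A count of 3, the least that was read as a signal, stood at 0.753 to 1.60 CPM before that correction. The floor accounts for counting error alone, since without molecular identifiers PCR duplicates go unseen. Of the 7 FAP markers examined, 6 had counts, among them *Pdgfra*, *Thy1* and *Col1a1*, while *Dpp4* had none. All 6 were tested and 3 were called, not all in the same direction. *Dcn* averaged 590 CPM under the SCA1-High label and 140 CPM under the SCA1-Low label (edgeR adjusted p = 0.0167). *Thy1* averaged 270 and 429 CPM (edgeR adjusted p = 0.0105). Their log2 fold changes were -2.08 and 0.67, and the calls held in 6 and 7 of 8 fits that left out a sample. The other called marker was *Ly6a*, described below. *Pax7*, *Myf5*, *Myod1* and *Myog* of myogenic cells had no counts in any sample, and summed markers did not exceed 12.5 CPM for myogenic cells, 5.85 CPM for leucocytes or 7.39 CPM for endothelial cells. Markers of mural cells summed to 24.2 to 46.1 CPM under the SCA1-High label and 27.3 to 69.7 CPM under the SCA1-Low label, those of glial cells to 9.90 to 19.0 and 5.44 to 8.70 CPM, and those of cartilage and tendon cells, chiefly *Sox9*, to 311 to 445 and 295 to 386 CPM. Of the mural markers, 3 were tested and all were called, *Cspg4* and *Myh11* higher in SCA1-Low-FAPs (log2 fold changes 2.40 and 1.85) and *Notch3* higher in SCA1-High-FAPs (-1.54). Their calls held in 2, 5 and 1 of 8 fits that left out a sample, and the *Cspg4* groups overlapped. The *Notch3* call was lost with the replicate number as a block (adjusted p = 0.0955). Of 3 tested cartilage and tendon markers, *Col2a1* was called higher in SCA1-Low-FAPs (3.70), at 0.731 ± 1.46 CPM in the SCA1-High and 10.2 ± 3.07 CPM in the SCA1-Low samples. The part of such cells in the member values was not tested. The mRNA of the sorted antigen itself, *Ly6a* (SCA-1), went against the labels after culture. It stood at 492, 789, 645 and 919 CPM in SCA1-High-FAPs and at 1099.7, 1079.7, 1156 and 1014 CPM in SCA1-Low-FAPs, with a log2 fold change between the states of 0.61 (standard error, SE, 0.17, adjusted p = 0.0341). That call held in 1 of 8 fits that left out a sample, with adjusted *p*-values up to 0.0947, and was lost with the replicate number as a block (adjusted p = 0.0573). The groups are therefore named here by the gate at sorting.

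Of the 35 genes, 32 had enough counts to be tested and 12 differed between the cell states, 6 in each direction. *Pkm*, *Ldha*, *Slc16a3*, *Pgam1*, *Hk1* and *Higd1a* were higher in SCA1-Low-FAPs. *Epas1*, *Pfkfb3*, *Ldhb*, *Ndrg1*, *Bnip3* and *Bnip3l* were higher in SCA1-High-FAPs. A positive log2 fold change is higher in SCA1-Low-FAPs. A gene was called when its adjusted *p*-value in edgeR's quasi-likelihood test was under 0.05 and its log2 fold change was beyond 0.5 in size. The 12 calls are 37.5% of the tested members, beside 7.68% of all 10181 tested genes. Calls higher in SCA1-Low-FAPs made up 18.8% of the tested members and 3.32% of all tested genes, and calls higher in SCA1-High-FAPs 18.8% and 4.36%. The median size of the log2 fold change, whatever its sign, was 0.63 over the 32 members and 0.30 over all tested genes. The signed median was 0.12. DESeq2 called the same 12 members and 8.53% of all genes with an adjusted *p*-value. With the replicate number as a block, edgeR called 8 members and 6.85% of all genes. Among fits that left out a sample, the count was lowest without replicate 4 of SCA1-Low-FAPs, with 3.96% of all genes and 6 members, of which 2 stood on the SCA1-Low side. It was 7 members and 3.96% without replicate 1 of SCA1-Low-FAPs, and 8 members, with 630 of 10503 genes, without replicate 1 of SCA1-High-FAPs. In both, 3 members stood on the SCA1-High side. It was highest without replicate 3 of SCA1-Low-FAPs, at 13 members and 9.85%. All 4 SCA1-Low-FAPs stood above all 4 SCA1-High-FAPs for 7 tested members and for 6.67% of all tested genes. The opposite order held for 5 tested members and for 7.46% of all tested genes. *Egln3*, which was not tested, is not read as separate. Its highest SCA1-High sample and its lowest SCA1-Low sample had 2 counts each, under the floor of 3. In bulk samples, fewer cells that make an mRNA and less of it per cell cannot be told apart.

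**Figure D1:**
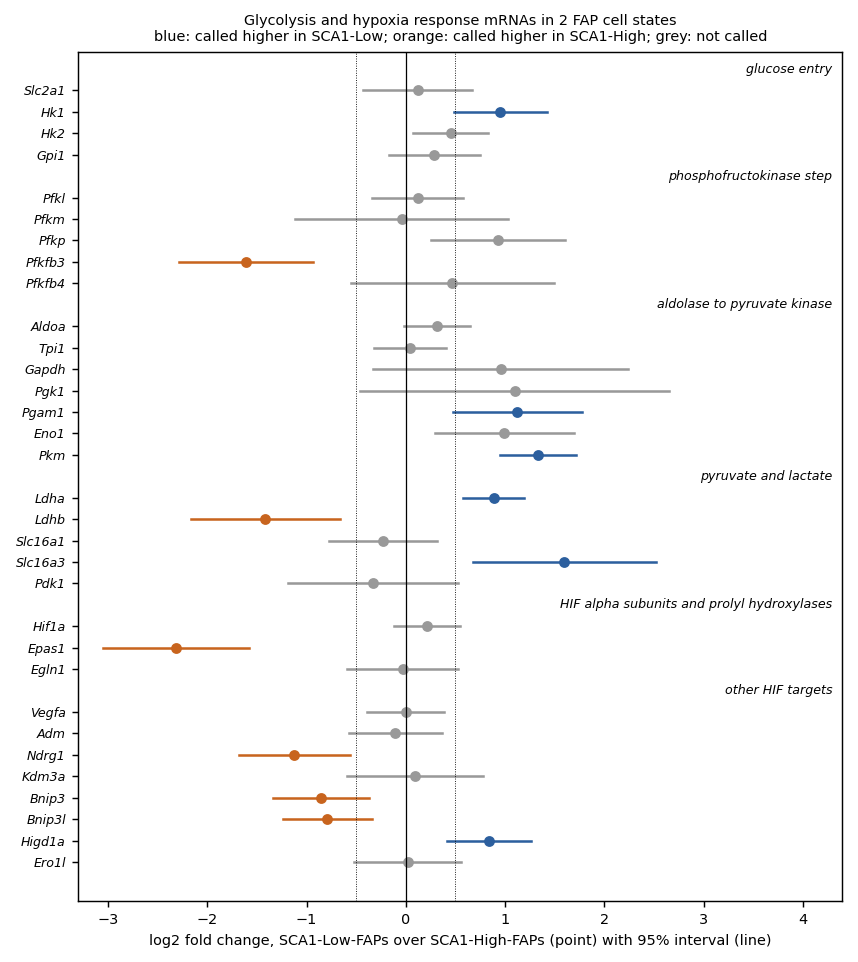
Log2 fold change between the cell states, positive when higher in SCA1-Low-FAPs (x axis) for the 32 tested members, grouped by role (y axis), with n = 4 per cell state. Points are edgeR estimates and lines their 95% intervals, blue or orange marks the 6 members called in each direction, and dotted lines stand at log2 fold changes of 0.5 in size. *Epas1* lies farthest to the left at -2.31 and *Slc16a3* farthest to the right at 1.60.

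The promoters of the members were read for the core letters of the hypoxia response element, ACGTG or GCGTG on either strand. The windows, taken from RefSeq on GRCm38.p6, run from 250 bases before to 50 bases after an annotated start. A palindromic CACGTG reads as ACGTG on both strands and counts as 2 matches. Of the 35 members, 32 were matched to a window, *Ero1l* under its newer symbol *Ero1a*, and *Epas1*, *Bnip3l* and *Ndrg1* were not matched. At least 1 match in any window was present in 30 of the 32, or 93.75%. The share was 46.73% of all genes with a window and 70.02% of the tested genes with a window. A gene with more windows has more chances of a match, and known HIF targets are among the members by choice. By window, 38 of 48 member windows (79.17%) held a match, beside 43.77% of all windows. At least 2 matches in a window were found for 24 of the 32 members (75%) and for 40.36% of the tested genes. A match in letters is not a bound site. The 250 bases before the start are given below for 2 members that were higher in SCA1-Low-FAPs and 2 that were higher in SCA1-High-FAPs, because windows of either direction held the same letters. They are written 5′ to 3′ on the strand of the gene, with the matched letters in capitals.
Ldha, chr7:46845554-46845803, plus strand: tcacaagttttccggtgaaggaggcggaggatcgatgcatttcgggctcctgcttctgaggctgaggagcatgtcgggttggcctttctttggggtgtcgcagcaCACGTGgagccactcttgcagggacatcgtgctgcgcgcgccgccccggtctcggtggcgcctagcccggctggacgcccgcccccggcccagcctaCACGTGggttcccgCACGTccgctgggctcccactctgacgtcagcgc
Slc16a3, chr11:120948817-120949066, plus strand: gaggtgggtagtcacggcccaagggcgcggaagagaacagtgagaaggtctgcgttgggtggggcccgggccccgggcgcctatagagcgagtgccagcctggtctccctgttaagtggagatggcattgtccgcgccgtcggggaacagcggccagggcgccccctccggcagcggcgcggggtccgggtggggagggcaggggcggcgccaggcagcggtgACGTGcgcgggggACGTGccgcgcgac
Bnip3, chr7:138909507-138909756, minus strand: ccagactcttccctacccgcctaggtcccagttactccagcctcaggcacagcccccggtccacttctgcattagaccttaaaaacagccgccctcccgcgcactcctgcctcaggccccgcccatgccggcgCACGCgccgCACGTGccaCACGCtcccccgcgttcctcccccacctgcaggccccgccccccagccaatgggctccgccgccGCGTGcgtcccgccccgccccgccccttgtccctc
Pfkfb3, chr2:11502091-11502340, minus strand: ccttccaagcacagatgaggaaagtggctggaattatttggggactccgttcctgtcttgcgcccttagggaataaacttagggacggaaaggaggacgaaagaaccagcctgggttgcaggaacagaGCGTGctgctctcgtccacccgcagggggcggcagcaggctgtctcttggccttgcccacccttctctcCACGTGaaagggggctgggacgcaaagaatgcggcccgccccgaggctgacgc
The *Ldha* stretch lies within the span of the gene in GENCODE M21 and falls between the exons annotated there. The bases after its start were not found in a GENCODE transcript of *Ldha*. Those after the other *Ldha* start were, and that window held 2 matches. Exons of other transcripts of the same gene covered 14 bases of the *Slc16a3* stretch, 13 bases of the *Bnip3* stretch and 11 bases of the *Pfkfb3* stretch. *Ldha* held 5 matches in these 250 bases, *Bnip3* 5, *Pfkfb3* 3 and *Slc16a3* 2. Another annotated start of *Pfkfb3* and another of *Ldha* had 1 match each before the start. A match in any window was present in 6 of 6 matched members called higher in SCA1-Low-FAPs, in 3 of 3 called higher in SCA1-High-FAPs and in 21 of 23 matched members without a call. With a match in 30 of 32 matched members, the presence of the letters could hardly differ between the directions, and *Epas1*, *Bnip3l* and *Ndrg1*, called higher in SCA1-High-FAPs, had no window in the table.

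**Figure D2:**
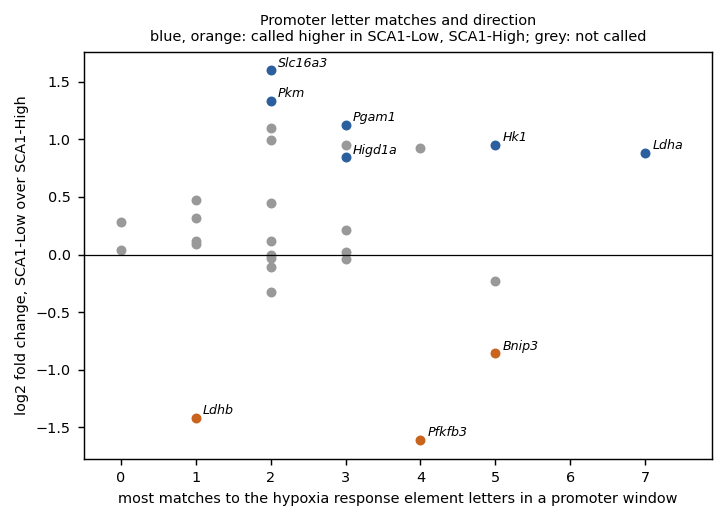
Log2 fold change between the cell states, positive when higher in SCA1-Low-FAPs (y axis) against the largest number of hypoxia response element letter matches in a promoter window of the gene (x axis), for the 29 tested members with a window. Each point is a gene, blue or orange if called higher in SCA1-Low-FAPs or SCA1-High-FAPs. *Ldha* has the most matches of the plotted genes, 7, at a start not found in a GENCODE transcript, and 2 at its other start. *Bnip3* and *Hk1*, which moved in opposite directions, have 5 each, and *Hk1* has 0 at its other annotated start.

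Glucose enters FAPs through carriers such as GLUT1, encoded by *Slc2a1*, and is trapped by hexokinases. Of the 4 members of this step, *Hk1* alone was called. *Hk1* (ENSMUSG00000037012, chr10:62268855-62379908, minus strand; gene positions are those of GENCODE M21 on GRCm38) encodes the broadly expressed hexokinase of the outer mitochondrial membrane. It was counted at 37.2, 58.3, 31.3 and 43.6 CPM in the SCA1-High samples and at 85.6, 77.3, 64.4 and 102 CPM in the SCA1-Low samples. All 4 SCA1-Low-FAPs lay above all 4 SCA1-High-FAPs, with means of 82.4 ± 15.8 against 42.6 ± 11.6 CPM (SD, n = 4). This is a 1.93-fold difference (log2 fold change 0.95, SE 0.22, adjusted p = 0.0137). The call was lost only when replicate 4 of SCA1-Low-FAPs was left out (0.82, adjusted p = 0.0677). *Hk2*, the hexokinase that HIF induces, was at 53.7, 60.6, 54.7 and 68.6 CPM in the SCA1-High samples and at 81.7, 72.4, 74.9 and 95.3 CPM in the SCA1-Low samples. The groups did not overlap, but the log2 fold change of 0.45 (SE 0.18, adjusted p = 0.147) did not pass. *Hk2* made up 58.7% ± 5.48 of the summed hexokinase counts in the SCA1-High samples and 49.8% ± 2.65 in the SCA1-Low samples (exact permutation p = 0.0571, 0.114 after Benjamini-Hochberg adjustment over the 10 shares computed). The remaining members of this step were not called. *Slc2a1* had a log2 fold change of 0.12 with a 95% interval from -0.43 to 0.67. *Gpi1*, which turns glucose 6-phosphate into fructose 6-phosphate, had 0.29 with an interval from -0.17 to 0.74.

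Phosphofructokinase commits glucose carbon to glycolysis, and the PFKFB enzymes make and remove its strongest allosteric activator. *Pfkfb3* (ENSMUSG00000026773, chr2:11471433-11554077, minus strand), the PFKFB isozyme with the highest ratio of kinase to phosphatase activity, was the called member of this step. It stood at 50.8, 38.4, 57.6 and 45.1 CPM in the SCA1-High samples and at 10.6, 7.08, 25.1 and 18.2 CPM in the SCA1-Low samples. Every SCA1-High sample exceeded every SCA1-Low sample, and replicate 2 was the lowest SCA1-Low sample. The level was 3.05-fold lower in the SCA1-Low samples (log2 fold change -1.61, SE 0.32, adjusted p = 0.00501), and the call held in 8 of 8 fits that left out a sample. The stretch of *Pfkfb3* printed above carries the same CACGTG as that of *Ldha*, a gene that moved the other way. That *Ldha* start was not found in a GENCODE transcript, and the window of its other start holds no CACGTG. *Pfkfb4* had a log2 fold change of 0.47, with a wide interval from -0.55 to 1.49 at 139 counts over the 8 samples.

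None of the 3 phosphofructokinase genes was called. *Pfkp*, the platelet-type subunit, was at 19.8, 37.1, 19.2 and 18.3 CPM in the SCA1-High samples and at 36.3, 71.3, 26.6 and 46.2 CPM in the SCA1-Low samples. Replicate 2 was the highest sample in either cell state, and the groups overlapped. The log2 fold change was 0.93 (SE 0.32, adjusted p = 0.0873), and it passed without replicate 2 of SCA1-High-FAPs (1.24, adjusted p = 0.0324) or without replicate 3 of SCA1-Low-FAPs (1.10, adjusted p = 0.0334). Exons of *Pitrm1* overlap those of *Pfkp* on the opposite strand. *Pitrm1* had 1419 counts, and the strand setting of the counting is not stated. The same holds for *Pfkm* with *Senp1* (513 counts), *Tpi1* with *Spsb2* (375), *Gapdh* with *Iffo1* (152) and *Hk1* with *Hk1os* (27). *Pfkl*, the liver-type subunit, had a log2 fold change of 0.12 (interval from -0.34 to 0.58) and *Pfkm*, the muscle-type subunit, one of -0.04 (interval from -1.12 to 1.03). *Pfkm* was at 1.09 CPM in replicate 2 of SCA1-Low-FAPs and lay between 10.6 and 17.9 CPM in the 7 other samples. The share of *Pfkp* among the 3 subunits was 27.3% ± 9.06 in the SCA1-High samples and 39.7% ± 14.4 in the SCA1-Low samples (exact permutation p = 0.2, 0.286 after adjustment).

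Between aldolase and pyruvate kinase, the fold changes of all 7 tested members were positive and 2 were called. *Pkm* (ENSMUSG00000032294, chr9:59656368-59679375, plus strand) encodes pyruvate kinase, which makes pyruvate and ATP in the last step of glycolysis. It had 457, 557, 499.8 and 451 CPM in the SCA1-High samples and 1205, 1105, 895 and 1751 CPM in the SCA1-Low samples. The lowest SCA1-Low sample, replicate 3, was well above the highest SCA1-High sample, with replicate 4 of SCA1-Low-FAPs on top. *Pkm* was 2.52-fold higher in the SCA1-Low samples (log2 fold change 1.34, SE 0.18, adjusted p = 0.000529), and the call held in 8 of 8 fits that left out a sample. Counts near the 3′ end do not tell its splice forms PKM1 and PKM2 apart. *Pgam1* (ENSMUSG00000011752, chr19:41911923-41918660, plus strand), the phosphoglycerate mutase of most tissues, was at 13.2, 12.7, 14.6 and 16.9 CPM in the SCA1-High samples and at 25.6, 36.5, 18.4 and 44.9 CPM in the SCA1-Low samples. The SCA1-High samples lay close together and below all SCA1-Low samples, which spread widely. The difference was 2.18-fold (log2 fold change 1.12, SE 0.31, adjusted p = 0.0328). The call held only when the sample left out was replicate 4 of SCA1-High-FAPs or replicate 3 of SCA1-Low-FAPs. Without any of the 6 others it was lost (adjusted p = 0.0533 to 0.174, the last without replicate 4 of SCA1-Low-FAPs), and also with the replicate number as a block (adjusted p = 0.0632).

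The 5 other tested members of this stretch did not pass. *Eno1*, the widely expressed enolase, was at 34.8, 20.8, 12.9 and 22.7 CPM in the SCA1-High samples and at 21.8, 63.7, 45.0 and 50.7 CPM in the SCA1-Low samples. Replicate 1 set the overlap, being the highest SCA1-High sample and the lowest SCA1-Low sample. Its log2 fold change was 0.99 (SE 0.33, adjusted p = 0.0791), and it passed without replicate 1 of SCA1-High-FAPs (1.27, adjusted p = 0.0427) or of SCA1-Low-FAPs (1.22, adjusted p = 0.0372). *Gapdh*, which encodes glyceraldehyde 3-phosphate dehydrogenase and is often used as a reference gene, ranged from 22.1 to 175 CPM in the SCA1-High samples and from 144 to 258 CPM in the SCA1-Low samples (log2 fold change 0.96, interval from -0.33 to 2.24). Values of *Eno1* and *Gapdh* are uncertain, since 76.8% and 63.0% of 75-base windows in the last 400 bases of their transcripts also occur in other genes, 98 of them for *Gapdh*, and reads aligned to more than one place were given to no gene. Among the called members this share was 14.7% for *Bnip3*, 12.4% for *Higd1a*, 12.01% for *Ldhb*, 6.22% for *Ldha*, 6.09% for *Pkm* and 0% for the other 7. Reads aligned to more than one place made up 37.5% to 39.7% of those tallied in SCA1-High-FAPs and 40.8% to 43.3% in the SCA1-Low samples, and their part in these values was not tested. *Pgk1*, the phosphoglycerate kinase gene on the X chromosome, had 148 counts in all and none in replicate 2 of SCA1-High-FAPs (log2 fold change 1.10, interval from -0.46 to 2.65). *Aldoa*, the main aldolase of these cells, reached 0.31 (interval from -0.02 to 0.65) at 477 to 869.6 CPM, and *Tpi1*, triose phosphate isomerase, 0.04 (interval from -0.32 to 0.41). *Aldoc*, with 9 counts in all, was not tested.

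Summed over the 15 glycolytic enzymes from hexokinase to *Ldha*, the level was 2038, 1949, 1947 and 1879.8 CPM in the SCA1-High samples and 3396, 3294, 2630.0 and 4178 CPM in the SCA1-Low samples. SCA1-High-FAPs spread little, with a mean of 1953 ± 65.0 CPM (SD, n = 4), and SCA1-Low-FAPs averaged 3374 ± 634 CPM. The ratio of the means was 1.73 and is given with no test. *Pkm*, *Ldha* and *Aldoa*, set apart after their values had been seen, carried most of the sum. The other 12 enzymes reached 570.3 ± 57.1 CPM in the SCA1-High samples and 829 ± 88.8 CPM in the SCA1-Low samples, a ratio of 1.45. Markers of dividing cells moved with this sum. All 10 of 10 were called higher in SCA1-Low-FAPs, and their summed level ran from 694 to 925 CPM in the SCA1-High samples and from 1324 to 1940.2 CPM in the SCA1-Low samples. Adipocyte markers moved the other way. Of 10 such genes, none of them at 0 in all samples, 9 were tested and 5 called, all higher in SCA1-High-FAPs, while DESeq2 called all 9. Their sum ran from 3166 to 12784 CPM in the SCA1-High samples and from 535 to 1516 CPM in the SCA1-Low samples. In a separate assay plated at lower density, the paper reports that SCA1-High-FAPs doubled faster, reached confluence earlier and lost Ki-67 sooner. Marker mRNA after 5 days of culture does not give a growth rate. The part of dividing cells, of cells with adipocyte mRNA and of cell density in the member values was not tested.

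**Figure D3:**
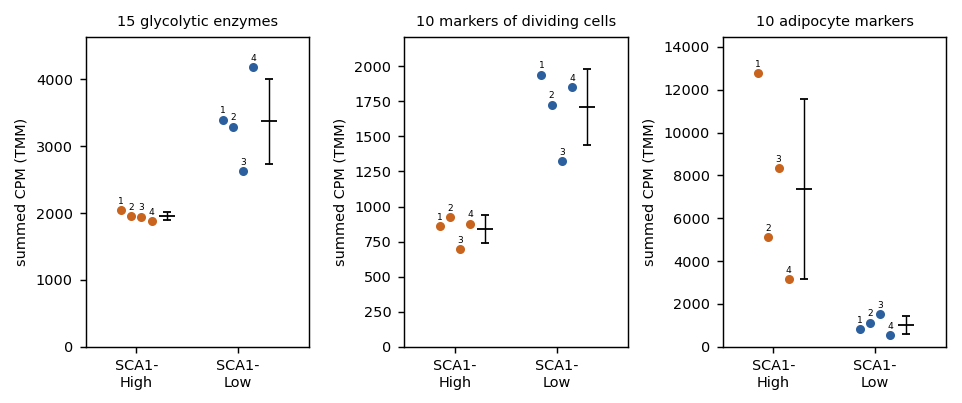
Summed CPM per sample (y axis) of 15 glycolytic enzymes, 10 markers of dividing cells and 10 adipocyte markers in SCA1-High-FAPs (orange) and SCA1-Low-FAPs (blue), points numbered by replicate, with mean and SD (bars, n = 4). The enzymes and the dividing-cell markers are higher in all 4 SCA1-Low-FAPs and the adipocyte markers in all 4 SCA1-High-FAPs.

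At the lactate step, a pair of related genes was called in opposite directions. *Ldha* and *Ldhb* encode the subunits of lactate dehydrogenase. Tetramers rich in the A subunit are known to favour the making of lactate from pyruvate, and those rich in the B subunit the reverse. *Ldha* (ENSMUSG00000063229, chr7:46841475-46855627, plus strand) stood at 363, 325, 301 and 326 CPM in the SCA1-High samples and at 645, 639, 479 and 666 CPM in the SCA1-Low samples. Replicate 3 was the lowest SCA1-Low sample and still lay above all SCA1-High samples. The mRNA was 1.85-fold higher in the SCA1-Low samples (log2 fold change 0.88, SE 0.15, adjusted p = 0.00144), and the call held in 8 of 8 fits that left out a sample. *Ldhb* (ENSMUSG00000030246, chr6:142490249-142507957, minus strand) was at 48.5, 31.2, 47.6 and 25.7 CPM in the SCA1-High samples and at 6.28, 25.0, 14.9 and 11.6 CPM in the SCA1-Low samples. The groups were separate by a narrow margin, between replicate 4 of SCA1-High-FAPs and replicate 2 of SCA1-Low-FAPs. *Ldhb* was 2.67-fold lower in the SCA1-Low samples (log2 fold change -1.42, SE 0.36, adjusted p = 0.0207). Its call was lost without replicate 1 or 3 of SCA1-High-FAPs or replicate 1 or 4 of SCA1-Low-FAPs (adjusted p = 0.0530 to 0.0731).

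*Ldhb* supplied 11.8%, 8.76%, 13.7% and 7.30% of the summed *Ldha* and *Ldhb* counts in the SCA1-High samples and 0.965%, 3.77%, 3.02% and 1.71% in the SCA1-Low samples. The share was lower in 4 of 4 SCA1-Low samples, at a mean of 2.37% ± 1.26 against 10.4% ± 2.88 (SD, n = 4). With 70 assignments of the samples, the two-sided exact permutation test gave p = 0.0286, the smallest value it can give, and 0.0952 after adjustment over the 10 shares, which did not pass. *Ldha* was the larger part of the pair in every sample. A share within a sample does not depend on library scaling.

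Lactate and pyruvate cross the plasma membrane through MCT1, encoded by *Slc16a1*, and MCT4, encoded by *Slc16a3*, the carrier typical of cells that export lactate. *Slc16a3* (ENSMUSG00000025161, chr11:120948480-120960868, plus strand) was at 3.30, 9.04, 16.3 and 15.04 CPM in the SCA1-High samples and at 39.2, 21.2, 18.7 and 54.1 CPM in the SCA1-Low samples. Replicates 2 and 3 of SCA1-Low-FAPs were close to the upper SCA1-High samples, without overlap. It showed the largest positive fold change among the tested members, 3.03-fold (log2 fold change 1.60, SE 0.44, adjusted p = 0.0347). The call was lost without replicate 1 or 2 of SCA1-High-FAPs or replicate 1 or 4 of SCA1-Low-FAPs (adjusted p = 0.0635 to 0.152), and with the replicate number as a block (adjusted p = 0.0521). *Slc16a1* was at 50.8, 44.8, 67.2 and 38.1 CPM in the SCA1-High samples and at 25.1, 46.8, 41.2 and 57.0 CPM in the SCA1-Low samples, with overlap. It was not called, with a log2 fold change of -0.23 and an interval from -0.77 to 0.31. *Slc16a3* made up 6.09%, 16.8%, 19.5% and 28.3% of the counts of both carriers in SCA1-High-FAPs and 60.9%, 31.2%, 31.2% and 48.7% in the SCA1-Low samples. The mean share was 17.7% ± 9.14 in the SCA1-High and 43.0% ± 14.5 in the SCA1-Low samples, higher in 4 of 4 SCA1-Low samples (exact permutation p = 0.0286, 0.0952 after adjustment, which did not pass). *Pdk1*, a HIF-induced kinase that inhibits pyruvate dehydrogenase, was at 5.80 to 13.6 CPM over the 8 samples and was not called (log2 fold change -0.33, interval from -1.19 to 0.53).

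**Figure D4:**
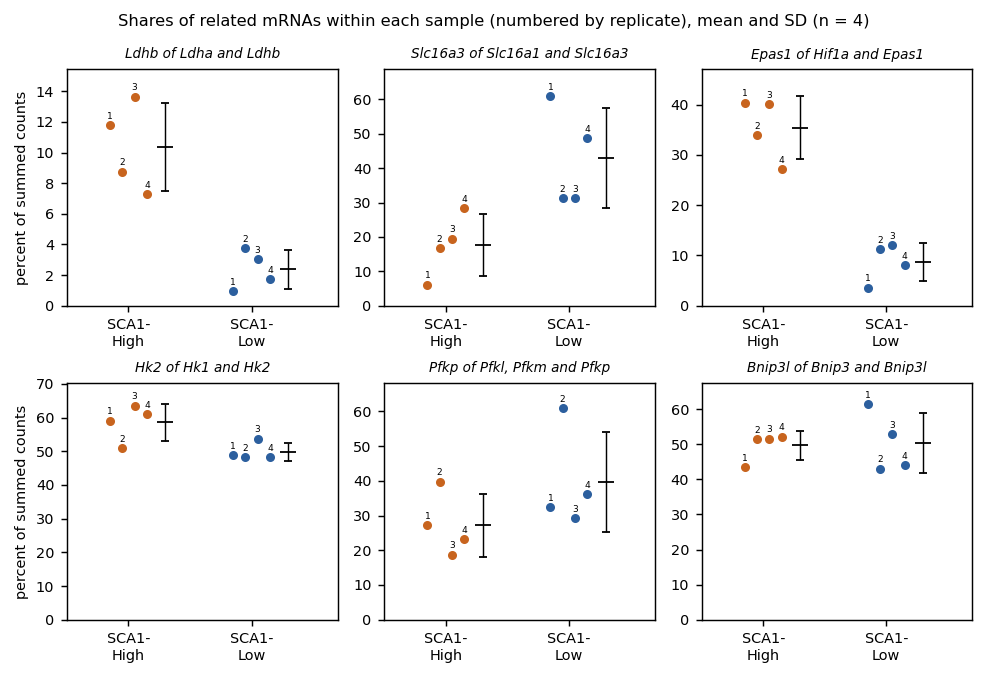
Share of a gene in the summed counts of related genes (y axis, percent) in each of 4 SCA1-High-FAPs (orange) and 4 SCA1-Low-FAPs (blue), points numbered by replicate, with mean and SD (bars). The 3 upper panels, *Ldhb*, *Slc16a3* and *Epas1*, do not overlap between the cell states. The shares of *Hk2*, *Pfkp* and *Bnip3l* in the lower panels do.

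Of the HIF alpha subunits, *Epas1* was called and *Hif1a* was not. *Epas1* (ENSMUSG00000024140, chr17:86753700-86833410, plus strand) encodes HIF2α, which is abundant in endothelial and fat-lineage cells. It stood at 99.3, 72.8, 129 and 61.6 CPM in the SCA1-High samples and at 7.73, 21.8, 28.9 and 14.0 CPM in the SCA1-Low samples. The highest SCA1-Low sample, replicate 3, remained far under the lowest SCA1-High sample. *Epas1* was 4.97-fold lower in SCA1-Low-FAPs, the largest change of any tested member (log2 fold change -2.31, SE 0.34, adjusted p = 0.00131), and the call held in 8 of 8 fits that left out a sample. *Emcn* and *Cldn5* of endothelial cells had no counts in any sample, and the 4 other endothelial markers summed to 7.39 CPM at most. Adipocyte markers were higher in the cell state with more *Epas1*, at the summed levels given above. The part of endothelial cells or of cells with adipocyte mRNA in the *Epas1* values was not tested. *Hif1a*, which encodes HIF1α, was at 146, 142, 193 and 165 CPM in the SCA1-High samples and at 206, 173, 211 and 159 CPM in the SCA1-Low samples. The groups overlapped and *Hif1a* was not called (log2 fold change 0.21, interval from -0.12 to 0.54). *Epas1* made up 40.4%, 34.0%, 40.1% and 27.2% of the counts of both genes in SCA1-High-FAPs and 3.62%, 11.2%, 12.1% and 8.10% in the SCA1-Low samples. Its mean share was 35.4% ± 6.24 against 8.75% ± 3.82, lower in 4 of 4 SCA1-Low samples (exact permutation p = 0.0286, 0.0952 after adjustment, which did not pass).

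Of the prolyl hydroxylases that mark HIF alpha subunits for destruction, *Egln1*, the main oxygen sensor, was at 26.3 to 51.3 CPM and was not called (log2 fold change -0.03, interval from -0.59 to 0.53). *Egln3*, a hydroxylase that is itself a HIF target, was near the floor. It had 0, 0, 2 and 0 counts in the SCA1-High samples and 2, 9, 13 and 5 counts in the SCA1-Low samples, 31 in all, and was left out of the test by the filter on low counts. A count of 0 allows up to 1.10 to 1.46 CPM in the SCA1-High samples. Its share of the *Egln1* and *Egln3* counts was 0.769% ± 1.54 in the SCA1-High samples and 6.97% ± 3.89 in the SCA1-Low samples (exact permutation p = 0.0571, 0.114 after adjustment).

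Among the 9 other HIF targets, 8 were tested and 4 were called, of which 3 were higher in SCA1-High-FAPs. Calls higher in SCA1-Low-FAPs were 12.5% of these 8, beside 3.32% of all tested genes. Those higher in SCA1-High-FAPs were 37.5%, beside 4.36%. *Ndrg1* (ENSMUSG00000005125, chr15:66929318-66969640, minus strand), induced by hypoxia and by growth arrest in many cells, was at 98.4, 84.1, 86.8 and 76.3 CPM in the SCA1-High samples and at 37.2, 50.6, 53.3 and 18.5 CPM in the SCA1-Low samples. All SCA1-High samples lay above all SCA1-Low samples, with replicate 4 of SCA1-Low-FAPs at the bottom. It was 2.18-fold lower in the SCA1-Low samples (log2 fold change -1.12, SE 0.26, adjusted p = 0.0147), a call lost only without replicate 1 of SCA1-Low-FAPs (adjusted p = 0.0567).

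*Bnip3* (ENSMUSG00000078566, chr7:138890836-138909519, minus strand) and *Bnip3l* (ENSMUSG00000022051, chr14:66985239-67008877, minus strand) encode related mitophagy receptors of the outer mitochondrial membrane. *Bnip3* had 105, 85.4, 70.1 and 56.1 CPM in the SCA1-High samples and 34.3, 40.3, 40.9 and 57.8 CPM in the SCA1-Low samples. Replicate 4 of either cell state overlapped the other, which made *Bnip3* the only called member without separate groups. *Bnip3l* had 81.0, 90.9, 74.7 and 61.2 CPM in the SCA1-High samples and 54.6, 30.5, 46.0 and 45.7 CPM in the SCA1-Low samples, with no overlap. The log2 fold changes were -0.86 for *Bnip3* (SE 0.23, adjusted p = 0.0284) and -0.79 for *Bnip3l* (SE 0.21, adjusted p = 0.0284), and the share of *Bnip3l* in their counts was 49.7% ± 4.12 against 50.4% ± 8.57 (exact permutation p = 0.714). Each call held in 4 of 8 fits that left out a sample. That of *Bnip3* was lost without replicate 1 or 2 of either cell state (adjusted p = 0.0733 to 0.110), and that of *Bnip3l* without replicate 1 or 2 of SCA1-High-FAPs or replicate 2 or 4 of SCA1-Low-FAPs (adjusted p = 0.0684 to 0.0899). With the replicate number as a block, adjusted *p*-values were 0.0792 for *Bnip3* and 0.0614 for *Bnip3l*.

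*Higd1a* (ENSMUSG00000038412, chr9:121848563-121858362, minus strand), a hypoxia-induced protein of the inner mitochondrial membrane, went the other way. It stood at 39.5, 36.2, 44.7 and 53.2 CPM in the SCA1-High samples and at 82.7, 67.5, 67.9 and 93.5 CPM in the SCA1-Low samples. The groups were separate, and *Higd1a* was 1.79-fold higher in the SCA1-Low samples (log2 fold change 0.84, SE 0.20, adjusted p = 0.0153). Leaving out replicate 1 or 4 of SCA1-Low-FAPs ended the call (adjusted p = 0.0518 and 0.0773). *Vegfa*, the angiogenic factor most often read as a sign of hypoxia, was not called, at 81.1 ± 12.1 and 81.1 ± 13.3 CPM (SD, n = 4), with an interval of the log2 fold change from -0.39 to 0.39. *Adm*, which encodes the vasodilator adrenomedullin, was abundant at 157 to 379 CPM and had a log2 fold change of -0.11 (interval from -0.58 to 0.36). *Kdm3a*, a histone demethylase, had 0.09 (interval from -0.59 to 0.78) and *Ero1l*, an oxidase of the endoplasmic reticulum, 0.02 (interval from -0.52 to 0.56). *Ankrd37* had 16 counts, was not tested, and its exons overlap those of *Ufsp2* on the opposite strand.

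**Figure D5:**
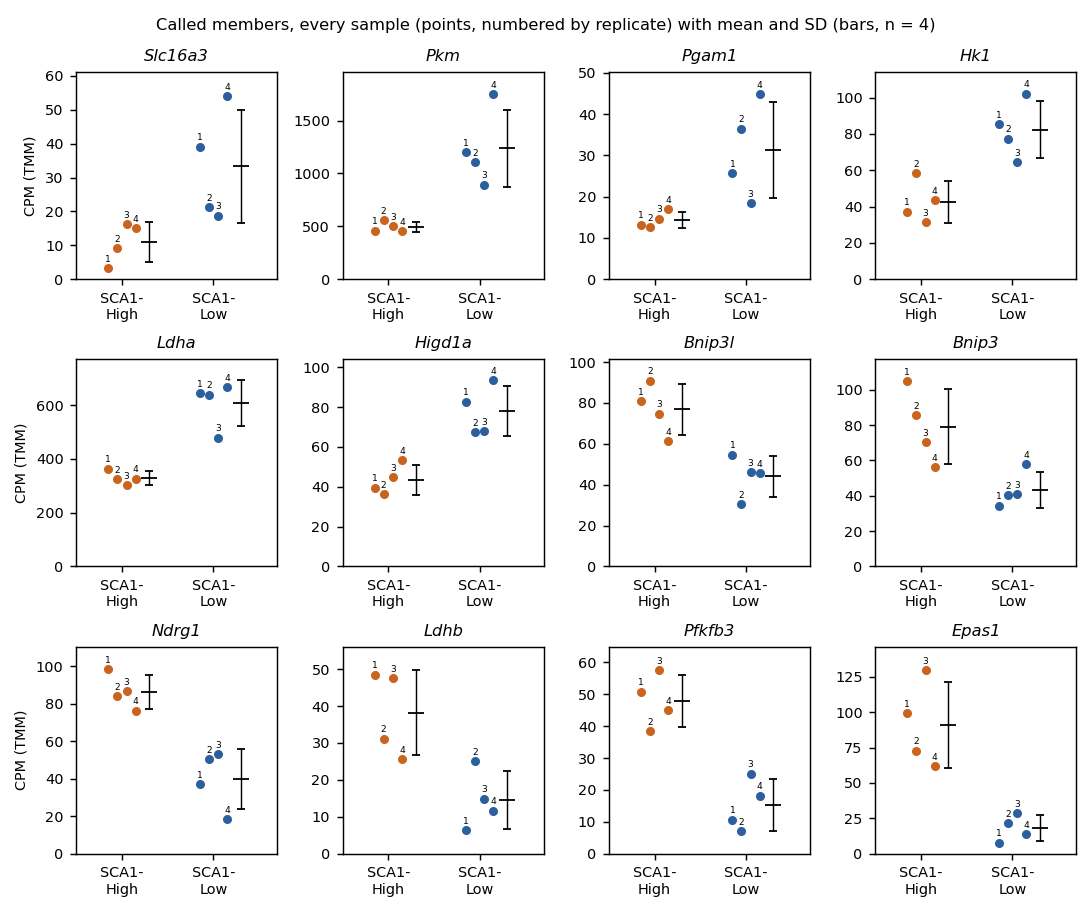
CPM (y axis) of the 12 called members in each of 4 SCA1-High-FAPs (orange) and 4 SCA1-Low-FAPs (blue), points numbered by replicate, with mean and SD (bars). Panels run from the largest positive fold change (*Slc16a3*) to the most negative (*Epas1*), and *Bnip3* is the only panel in which the cell states overlap.

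A further 82 genes of neighbouring pathways were read in the same fit. Of these, 61 were tested and 7 were called, 3 higher in the SCA1-Low and 4 in the SCA1-High samples, or 11.5% of those tested beside 7.68% of all tested genes. By direction these were 4.92% beside 3.32% and 6.56% beside 4.36%. The 4 calls higher in SCA1-High-FAPs fell to 1 without SCA1-Low replicate 4 or SCA1-High replicate 3, and to 2 without replicate 1 of either cell state or SCA1-Low replicate 2. None of 11 tested genes for other glycolytic isozymes, glucose transporters and gluconeogenesis was called, nor was any of the 8 pentose phosphate genes or of the 7 tested glycogen genes. At an unadjusted p under 0.05, edgeR's test gave 1, 0 and 1 genes in these lists, and DESeq2 called 1, 0 and 0. Of 10 tested genes for the entry of pyruvate into mitochondria, 2 were called, and both were higher in SCA1-High-FAPs. *Mpc2*, a subunit of the mitochondrial pyruvate carrier, was at 163 ± 45.0 CPM in the SCA1-High samples and 92.95 ± 27.3 CPM in the SCA1-Low samples (log2 fold change -0.81, adjusted p = 0.0375). *Pdk2*, a kinase that inhibits pyruvate dehydrogenase, was at 22.6 ± 5.36 and 8.02 ± 3.21 CPM (log2 fold change -1.47, adjusted p = 0.0215). The mRNAs of a carrier subunit and of an inhibitor of the next step were thus higher in the same cell state. *Mpc1*, which encodes another subunit of the carrier, was not called, at 7.48 and 6.76 CPM (log2 fold change -0.18, adjusted p = 0.897).

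Of 25 tested HIF partners and further hypoxia targets, 3 were higher in SCA1-Low-FAPs and 2 in the SCA1-High samples. These were 12% beside 3.32% of all tested genes, and 8% beside 4.36%. *Mif*, a cytokine, was at 453 ± 48.8 CPM in the SCA1-High samples and 803 ± 174 CPM in the SCA1-Low samples (log2 fold change 0.83, adjusted p = 0.00407), and *Fam162a*, a hypoxia-induced mitochondrial protein, at 68.7 ± 11.3 and 112 ± 19.8 CPM (log2 fold change 0.71, adjusted p = 0.0255). *Angptl4*, an inhibitor of lipoprotein lipase that PPAR factors also induce, was at 55.1 ± 22.5 CPM in the SCA1-High samples and 24.1 ± 12.9 CPM in the SCA1-Low samples, with overlap between the groups (log2 fold change -1.17, adjusted p = 0.0447). *Ppp1r3c*, which brings a phosphatase to glycogen, was at 19.5 ± 3.42 and 6.41 ± 2.98 CPM (log2 fold change -1.57, adjusted p = 0.0200). The call of *Mif* held in 8 of 8 fits that left out a sample. In such fits those of *Pdk2*, *Fam162a*, *Ppp1r3c*, *Mpc2* and *Angptl4* held in 7, 5, 5, 3 and 2 of 8, with adjusted *p*-values up to 0.0654, 0.114, 0.0641, 0.130 and 0.144. As with the members, genes known as HIF targets were called in both directions.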

How the data were processed

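RNA of 4 SCA1-High-FAPs and 4 SCA1-Low-FAPs of *mdx* mice was sequenced as QuantSeq 3′ mRNA libraries. The deposited values are raw read counts per gene, made by the authors with STAR on mm10 and htseq-count on Ensembl release 93 genes, without normalisation. The strand setting is not given in the sources used here, and molecular identifiers are not mentioned. Reads on no gene (13.3% to 16.4%) and reads aligned to several places were not taken as genes. Of 31053 identifiers, 31011 were matched to GENCODE M21 for names and GRCm38 positions.

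All genes were fitted in edgeR 4.0.16 (R 4.3.3) with its robust quasi-likelihood test, TMM factors and Benjamini-Hochberg adjustment over 10181 genes kept by filterByExpr (minimum 10 counts, 15 in total). Where no tool is named, adjusted *p*-values come from edgeR. A call required a log2 fold change beyond 0.5 in size together with an adjusted *p*-value under 0.05. Shares were compared by two-sided exact permutation tests over 70 assignments (scipy 1.17.1), in which no share with under 20 summed counts in a sample was to be tested. Tests were checked on simulated counts.

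The members and all lists were chosen with earlier results of these data known. Genes called, genes with an unadjusted *p*-value under 0.05 and genes of a share with an exact *p*-value under 0.05 are given sample by sample, and called genes of the other lists by name, except 1 that is not reported here. Alternatives were DESeq2 1.42.0, RLE factors, other filters, the replicate number as a block, each sample left out, a threshold of 0.01, no limit on the fold change, shares of summed counts and plain CPM. The sources do not say that equal replicate numbers mean the same mouse, and the main fit has no block. Over all tested genes, the deviations of same-numbered samples correlated between -0.0424 and 0.0105, which does not show whether they share a mouse. Replicates are separate samples of 4 mice, which supplied both cell states. The main fit and the permutation tests treat all samples as independent and leave out any sharing of mice between the states.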

Additional observations from a re-analysis of the deposited data

Results flagged for a closer look

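In each cell state, the lowest and highest of the 4 samples were compared with the rest by Dixon's test at its 95% level for every member and share. Of 90 groups checked, 10 were flagged. The chance rate of about 1 in 20 is no yardstick here, since the shares reuse counts of the members and some groups hold almost no counts. Of the called members, only *Ldha* was flagged. Its replicate 3 of SCA1-Low-FAPs was at 479 CPM and the other SCA1-Low replicates at 639 to 666. *Slc2a1* was at 18.0 CPM in replicate 3 of SCA1-High-FAPs, against 31.6 to 33.0 in the others, and *Pfkp* at 37.1 CPM in replicate 2 of SCA1-High-FAPs, against 18.3 to 19.8.

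At the limit of detection, *Aldoc* was at 1.10 CPM in replicate 4 of SCA1-High-FAPs (0.230% of the aldolase counts) and *Egln3* at 0.835 CPM in replicate 3 (3.08% of the *Egln1* and *Egln3* counts), with no counts in the other SCA1-High samples.

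The *Hk2* share was 53.8% in replicate 3 of SCA1-Low-FAPs and 48.3% to 48.8% in the others. The *Pfkl* share was 38.1% in replicate 2 of SCA1-Low-FAPs, against 51.7% to 52.8%, and the *Bnip3l* share 43.5% in replicate 1 of SCA1-High-FAPs, against 51.5% to 52.2%.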

How the results depend on the processing

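With DESeq2, the same 12 members were called, and the count was 12 with RLE factors, 14 with no filter beyond 1 count (*Eno1* and *Pfkp* gained) and 11 with at least 10 counts in every sample (*Slc16a3* lost). An adjusted *p*-value under 0.01 left 2 members on the SCA1-Low side and 2 on the SCA1-High side, and of the other pathway genes 1 and 0. Without a low-count filter, 8 other pathway genes were higher in SCA1-High-FAPs. Leaving out each sample in turn gave 2 to 7 members on the SCA1-Low side and 3 to 6 on the SCA1-High side. The lowest totals were 6 without replicate 4 (3.96% of all genes called) and 7 without replicate 1 of SCA1-Low-FAPs (3.96%), and the highest 13 without replicate 3 of SCA1-Low-FAPs (9.85%), beside 7.68% with all samples. For the other pathway genes, these fits gave 2 to 3 and 1 to 6. The ratio of summed enzymes was 1.59 to 1.85 in them and 1.69 with plain CPM. No log2 fold change of a member given sample by sample reversed its sign. Why calls were lost was not tested, beyond the smaller number of samples in fits that left out a replicate.

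With the replicate number as a block, 8 members were called, 4 in each direction (*Bnip3*, *Bnip3l*, *Pgam1* and *Slc16a3* lost), and in DESeq2 with the block 9, with *Slc16a3* kept. Over all tested genes, same-numbered samples did not deviate together, but this check does not show that they come from different mice. Of 9 tested adipocyte markers, edgeR called 5 without and 7 with the block. Adjusted *p*-values without and with it were 0.0286 and 1.64e-07 for *Car3* and 0.0167 and 8.79e-05 for *Dcn*, but 0.101 and 0.120 for *Fabp4*. Whether same-numbered samples share a mouse is not known. Paired within replicate numbers, a sign-flip test of 4 differences cannot go below p = 0.125, the exact value for the *Ldhb*, *Slc16a3* and *Epas1* shares.

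At this depth, *Egln3*, *Aldoc* and *Ankrd37* had too few counts for the low-count filter, and none was called with no filter beyond 1 count.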
